A study of Mus musculus with 50 samples.

Results

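β-catenin is the gene product of Ctnnb1, and the libraries labelled shBcat are V6.5 mouse embryonic stem cells with a β-catenin knockdown that were taken into epiblast-like cell (epiLC) medium. The change described here is the one between the shBcat epiLC libraries labelled 48 and 96 hours, with 2 libraries at each time. It covers every gene at 1 TPM or more, a length-scaled share of the transcripts in a library, in at least 2 of the 8 libraries of its expression table, which left 15304 of 55421 genes. The 4 libraries compared are 4 of the 50 samples of the series. The same table holds 2 shBcat libraries at 24 h and 2 control epiLC libraries at 96 h, whose labels name no hairpin. A second table, normalized separately, holds 2 libraries each of V6.5 cells in 2i medium and of epiLC at 24 and 48 h. The labels of these epiLC libraries name no hairpin either. They are called unmodified here to tell them from the 96 h control, and the labels do not use that word. The titles give V6.5 for every group. The labels give epiLC media as the culture condition of every epiLC group and 2i media as the growth protocol of all of them, and the RNA came from TRIzol extraction. The labels do not state from which event the hours were counted, how the hairpin was delivered, whether the shBcat line is a clone and whether the 2 libraries of a group are separate cultures. The tests therefore rest on the spread within pairs of libraries, and that spread may be technical only.

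Embryonic stem cells in 2i medium, which holds an inhibitor of Mek and an inhibitor of Gsk3, resemble the naive epiblast before implantation. On transfer to epiLC medium they pass into a formative state resembling the epiblast just after implantation: naive genes fall, Fgf5 and Otx2 mark the new state, and Pou5f1 is kept. β-catenin has 2 roles in these cells. It joins E-cadherin to the cytoskeleton at cell contacts, and in the nucleus it is the partner of the Tcf and Lef factors through which Wnt signals act. Gsk3 belongs to the complex that marks β-catenin for destruction.

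The targeted gene, Ctnnb1 (chr9:120933400-120960507, GRCm38.p6), stood at 94.9 and 94.5 TPM in the 2 shBcat libraries at 24 h, at 107 and 103 TPM at 48 h and at 145 and 142 TPM at 96 h, against 448 and 441 TPM in the control libraries at 96 h. All 6 shBcat libraries were below both controls. Within the knockdown it rose from 48 to 96 h by 0.45 ± 0.04 (SE), adjusted p = 3.19e-04 on the log2(TPM + 1) scale, which is the scale of every fold change here, and at 96 h it was still lower than in the control, with a difference of -1.62 (SE 0.04). In the 8 libraries 13924 to 14485 genes reached 1 TPM. The median gene differed by 0.12 (log2) between the 2 shBcat libraries at 96 h and by 0.071 between those at 48 h, against 0.22 between the times. Mitochondrial transcripts took 5.40% and 5.30% of TPM at 48 h, 4.87% and 4.76% at 96 h, and 3.91% and 3.83% in the control. TPM keep no sequencing depth, so the depth behind each value is unknown. The epiblast markers Pou5f1, Fgf5, Otx2, Pou3f1 and Dnmt3b were all expressed. Of 23 markers of other lineages, 10 stayed under 1 TPM in every library: Gata6, Sox7, Sox17, Elf5, Col3a1, Postn, Six3, Dcx, Mesp1 and Tbx6. The other 13 reached 1 TPM or more in at least 1 library. The highest of them was the neuronal marker Stmn2, at 56.1 and 59.7 TPM at 48 h, 56.1 and 56.8 TPM at 96 h and 52.7 and 46.1 TPM in the control.

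From 48 to 96 h, 3856 genes rose and 1504 fell at an adjusted p under 0.05 (limma, Benjamini-Hochberg over all genes tested), or 25.2% and 9.83% of the genes tested. At least a 2-fold change was reached by 197 of the rises and 127 of the falls. The median of all genes tested was 0.09, so the balance of rises and falls depends on scaling: when the libraries were scaled by the median of their gene ratios, 2543 genes rose and 2396 fell, and the share of rises among the calls went from 71.9% to 51.5%. Of the 5360 genes called, 4045 were called the same way under that scaling and 0 the opposite way. The rises numbered 2164 without the first 48 h library, 1868 without the second and 2458 without the second 96 h library, and the falls 797 and 743 without the first and the second 48 h library. The plot of all genes shows the largest changes in both directions at moderate expression, rather than among the most abundant transcripts.

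**Figure D1:**
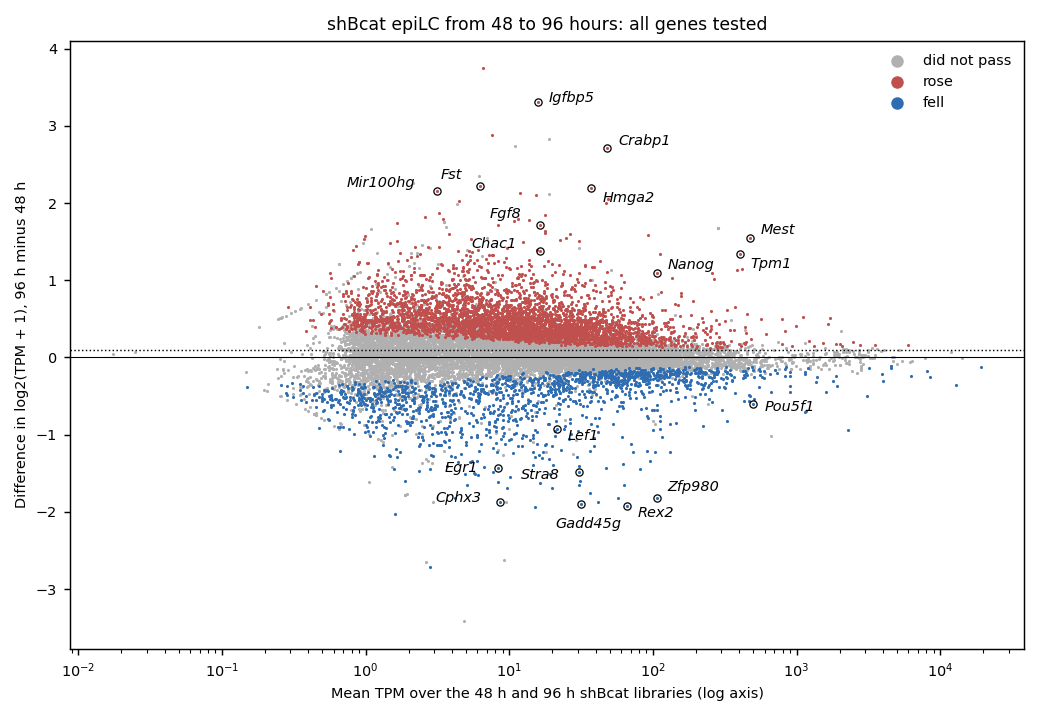
Each point is 1 of the genes tested, with its mean TPM over the 4 shBcat libraries at 48 and 96 h on a log axis and its difference in log2(TPM + 1) between those times on the vertical axis. Red genes rose and blue genes fell at an adjusted p under 0.05, grey genes did not pass, the dotted line is the median of all genes (0.09), and named genes such as Igfbp5 at 3.31 and Rex2 at -1.92 are ringed.

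The 15 largest rises named by the rule were led by Igfbp5, Crabp1, Fst and Hmga2. Igfbp5, a secreted binding protein of insulin-like growth factors (chr1:72858065-72874865, GRCm38.p6), was at 1.81 and 2.40 TPM at 48 h and at 29 and 30.2 TPM at 96 h, a rise of 3.31 ± 0.10 (SE), adjusted p = 4.63e-06. Its control libraries at 96 h held 33.9 and 33.8 TPM, and the difference from the control was -0.19 (adjusted p = 0.35). Crabp1, which binds retinoic acid in the cytoplasm, went from 12.5 and 11.6 TPM to 82.2 and 86.3 TPM, a rise of 2.71 (SE 0.07). The control held 162 and 156 TPM, a difference of -0.91 (SE 0.07). Hmga2, an architectural chromatin protein of early embryonic cells and a target of let-7, went from 12.5 and 12.9 TPM to 59.9 and 63.8 TPM, a rise of 2.19 (SE 0.07), and stood at 84.9 and 77.7 TPM in the control. Libraries that did not overlap between the times were a condition of being named in this group. Both 96 h libraries lay above both 48 h libraries in 46.9% of all genes tested. Fst encodes follistatin, which binds activin. It stood at 1.30 and 1.87 TPM and then at 11.3 and 10.6 TPM, a rise of 2.22 (SE 0.12).

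The other genes of that group rose by 1.78 to 2.13. They included the kinase gene Nuak1, at 3.51 and 4.03 TPM and then 19.4 and 20.5 TPM, and the imprinted genes Plagl1 (a rise of 2.10), a zinc-finger transcription factor, and Nnat (2.05). Cnn2, a calponin that binds actin, went from 17.4 and 19.5 to 76.8 and 76.3 TPM, and Myl9, a regulatory light chain of myosin, from 6.83 and 7.26 to 33.7 and 22.9 TPM. Dok5, Sema3f, Cplx2 and Trp53i11 rose by 2.02, 1.80, 1.79 and 1.78. Hist2h2bb, a replication-type histone gene, went from 0.730 and 0.930 to 6.41 and 4.99 TPM and stood at 2.46 and 2.79 TPM in the control. Of all genes tested 2.29% were higher and 2.54% lower with shBcat than in the control at 96 h, and of these 15 genes 4 passed the threshold: Crabp1, Hmga2 and Dok5 were lower with shBcat (-0.91, -0.39 and -0.49) and Hist2h2bb was higher (0.88).

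Among the 15 is 1 microRNA host gene. Mir100hg (chr9:41376526-41615185, GRCm38.p6) was under 1 TPM at 48 h, at 0.470 and 0.550 TPM, and reached 6.03 and 5.48 TPM at 96 h, a rise of 2.16 (SE 0.12), with 4.95 and 3.83 TPM in the control. Its span holds the genes of miR-100, let-7a and miR-125b, microRNAs known for developmental timing, and their mature sequences from RefSeq are printed because the host transcript is among the largest rises. Capitals mark the seed, bases 2 to 8.
mmu-miR-100-5p: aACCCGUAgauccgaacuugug
mmu-let-7a-5p: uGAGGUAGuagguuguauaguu
mmu-miR-125b-5p: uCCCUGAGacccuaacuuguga
The 3 seeds differ from each other. Mature microRNAs were not measured in these libraries, and Hmga2, whose transcript is known to be bound by let-7, rose together with the host gene.

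Of the 15 largest falls named, 7 are zinc-finger genes: Rex2, Zfp600, Zfp980, Zfp978, Zfp989, Zfp640 and Zfp981. Of these, 5 have a RefSeq position, matched by symbol, in 1 cluster on chromosome 4, namely Rex2, Zfp600, Zfp980, Zfp978 and Zfp981. Rex2 was at 106 and 104 TPM at 48 h and at 26.1 and 27.9 TPM at 96 h, a change of -1.92 ± 0.07 (SE), adjusted p = 8.13e-06. The control libraries held 13.6 and 12 TPM, and the shBcat libraries at 96 h were higher than these by 1.02 (SE 0.07). Zfp980 went from 166 and 168 TPM to 46.5 and 46.4 TPM (control 24.8 and 22 TPM). Gadd45g, a stress-inducible growth arrest gene, went from 51.1 and 49 to 11.5 and 13.9 TPM, a change of -1.90 (SE 0.10). Cphx3, a homeobox gene of the early embryo, went from 13.7 and 14.8 to 2.91 and 3.42 TPM. Outside these families Col6a5, a collagen chain, changed by -1.69, Enox1 by -1.65, Vwa3b by -1.55, Ccno by -1.53, Fbp2, a gluconeogenic fructose bisphosphatase, by -1.51 and Nphs1, nephrin, by -1.51. Against the control at 96 h, 12 of the 15 were higher with shBcat and 0 were lower at an adjusted p under 0.05. Over all genes tested, 2.29% were higher and 2.54% lower. The count is a description, since both contrasts use the 96 h shBcat libraries.

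The chromosome 4 cluster was looked at as a whole after these values were seen. It spans chr4:145412232-147812229 (GRCm38.p6) and lists 18 protein-coding genes, a known group of KRAB zinc-finger genes. KRAB zinc-finger proteins are repressors, many of which bind mobile elements. Of the 17 genes tested, 16 fell and 0 rose from 48 to 96 h. The other was Zfp993, at 54.8 and 55.6 and then 45.6 and 35.6 TPM (-0.45, adjusted p = 0.061). The changes ran from -1.92 to -0.45 with a median of -1.21, and in 17 of 17 genes both 96 h libraries were below both 48 h libraries, which held for 21.8% of all genes tested, while in 46.9% both were above. Summed over the cluster the 48 h libraries held 1431 and 1434 TPM, the 96 h libraries 613 and 556 TPM and the controls 361 and 326 TPM. Against the control at 96 h, 15 of the 17 were higher with shBcat, where 2.29% of all genes tested were. The 10 tested genes on each side of the cluster moved differently: 8 of the 20 rose and 0 fell, with a median of 0.21. Numbered Zfp genes with a position elsewhere in the genome numbered 320 tested, of which 96 rose and 22 fell, with a median of 0.14. A further 4 numbered Zfp genes had no position matched by symbol, and of these 0 rose and 3 fell, with a median of -0.75. The transcripts of the cluster genes were not compared with one another here. Where they are alike, reads could be split between them, and the value of a single member is less certain than their sum. The 17 genes are then not separate measurements.

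For 3 of these genes the 250 bases before the start given in the RefSeq promoter table are printed, since the members moved together and share sequence there. For Zfp980 that is the first base of the gene's span. For Rex2 and Zfp981, whose spans begin at 146973610 and 146502000, it lies inside the span. All are on the plus strand, from RefSeq promoters of GRCm38.p6: Rex2 at chr4:147021600-147021849, Zfp980 at chr4:145670447-145670696 and Zfp981 at chr4:146514670-146514919. Capitals mark the 2 longest stretches that the 3 share, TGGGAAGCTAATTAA and, outside it, GCAAAAATCCAAA.
Rex2: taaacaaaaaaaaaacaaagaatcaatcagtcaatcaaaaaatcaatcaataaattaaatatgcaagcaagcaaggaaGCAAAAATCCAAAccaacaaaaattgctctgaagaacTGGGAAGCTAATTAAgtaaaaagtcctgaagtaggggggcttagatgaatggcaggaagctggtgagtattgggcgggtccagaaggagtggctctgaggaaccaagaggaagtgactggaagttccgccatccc
Zfp980: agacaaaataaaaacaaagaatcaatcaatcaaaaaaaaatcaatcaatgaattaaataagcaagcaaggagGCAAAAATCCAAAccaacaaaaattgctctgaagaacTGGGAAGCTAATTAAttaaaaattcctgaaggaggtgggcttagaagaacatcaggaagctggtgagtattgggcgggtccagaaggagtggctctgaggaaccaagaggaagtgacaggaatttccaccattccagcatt
Zfp981: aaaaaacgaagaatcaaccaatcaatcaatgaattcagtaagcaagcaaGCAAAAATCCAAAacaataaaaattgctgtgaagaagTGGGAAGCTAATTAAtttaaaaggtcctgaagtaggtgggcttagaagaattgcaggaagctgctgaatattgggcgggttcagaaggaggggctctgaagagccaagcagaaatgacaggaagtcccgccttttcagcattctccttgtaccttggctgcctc
Both stretches were taken from these promoters and then searched, without overlap, on both strands in the 250 bases before every start in that table. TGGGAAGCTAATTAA was in 12 of 32851 promoters (0.0365%), all 12 of them of cluster genes, among the 13 cluster genes with a promoter entry. The exception was Zfp993. GCAAAAATCCAAA was in 9 promoters (0.0274%), all 9 of them of cluster genes, among the same 13. Those without it were Gm13212, Zfp984, Zfp985 and Zfp993, and of these Gm13212, Zfp984 and Zfp985 also fell (-0.80, -0.56 and -0.86). Neither stretch was in any of the 19 flanking genes with an entry. The match is a description of the sequence and identifies no binding site.

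**Figure D2:**
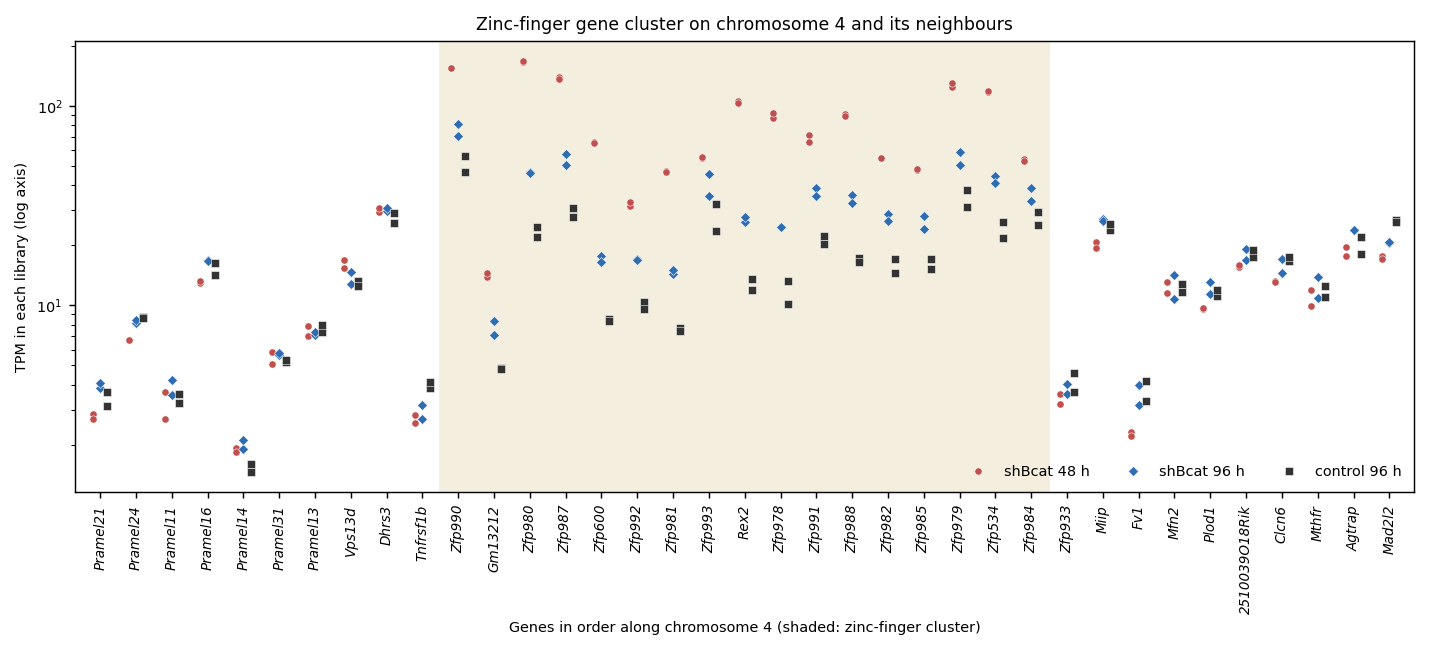
TPM on a log axis of each tested gene of the chromosome 4 cluster (shaded) and of 10 tested genes on either side, in chromosomal order and not to scale, with 1 point per library for shBcat at 48 h, shBcat at 96 h and control at 96 h. In the shaded genes the 96 h shBcat points lie below the 48 h points in 17 of 17, and in the neighbours 8 of 20 genes rose and 0 fell.

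Lists of genes by function were counted in the same way, and the plot of gene lists sets each against the share of all genes tested. The count of a list is to be read against 25.2% rising and 9.83% falling. With bulk RNA, fewer cells of a type and less RNA per cell cannot be told apart. Of 44 lists, 35 had more rises than falls, and 28 had under the median-of-ratios scaling.

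**Figure D3:**
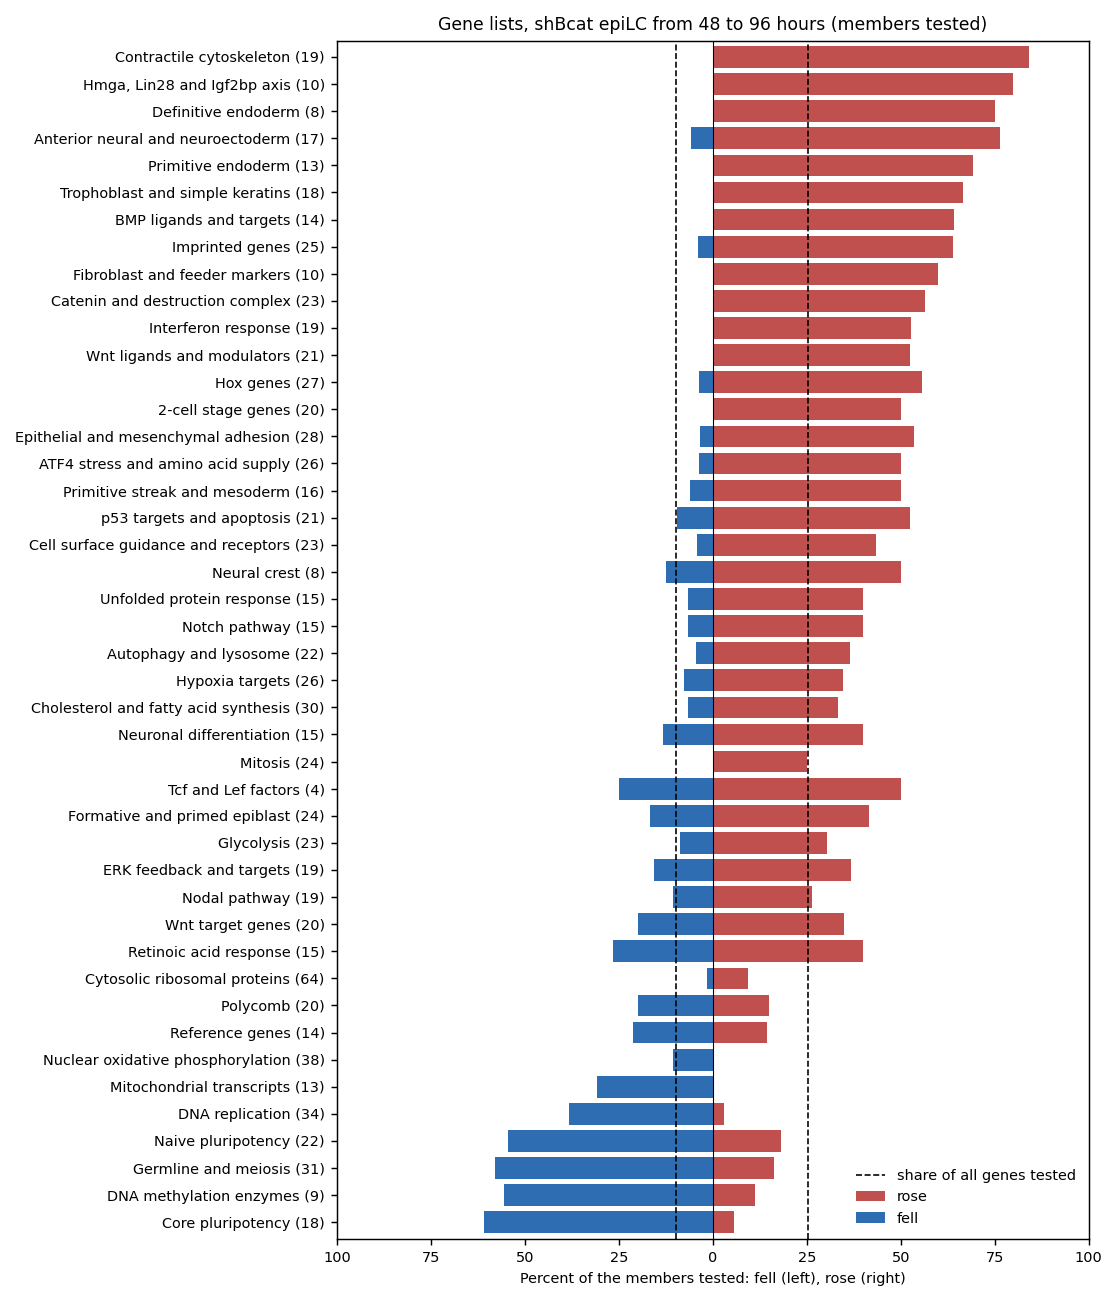
Percent of the tested members of each of 44 gene lists that rose (right, red) or fell (left, blue) from 48 to 96 h at an adjusted p under 0.05, with the number of members tested in brackets. The dashed lines are the shares of all genes tested, 25.2% and 9.83%; contractile genes (16 of 19 rose) stand at the top and core pluripotency genes (11 of 18 fell) at the bottom.

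Pluripotency genes fell, with exceptions that rose. Of 18 core pluripotency genes 11 fell and 1 rose, with a median of -0.32, and 7 fell without either 48 h library. Pou5f1, the central factor of the network, was at 602 and 606 TPM at 48 h and at 386 and 409 TPM at 96 h (-0.60 ± 0.04 (SE), adjusted p = 1.24e-04), and the control held 348 and 360.1 TPM. Tdgf1, a co-receptor of Nodal, went from 425 and 414 to 242 and 234 TPM, and Dppa5a changed by -0.69. Sox2, at 68.2 and 67.1 and then 62.1 and 64.8 TPM, did not pass (adjusted p = 0.18). Of 22 naive genes 12 fell and 4 rose, and 2 rose without either 48 h library or under median-of-ratios scaling. Nr0b1, a nuclear receptor of the naive network, went from 8.52 and 7.68 to 2.24 and 2.89 TPM (-1.36 (SE 0.11)), and Manba and Pecam1 changed by -1.10 and -0.94. Nanog, by contrast, rose from 70.6 and 64.2 to 157 and 135 TPM (1.10 (SE 0.08)), beside 159 and 155 TPM in the control. Esrrb, a nuclear receptor of naive cells, was at 26.6 and 25.1 TPM at 24 h, 8.95 and 9.30 TPM at 48 h and 13.4 and 15.3 TPM at 96 h, so it fell in the first interval (-1.40) and rose in the second (0.60). Klf4 stayed below 2 TPM (1.97 and 1.79, then 1.17 and 1.40); its change of -0.33 lost the call without any 1 of the 8 libraries.

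**Figure D4:**
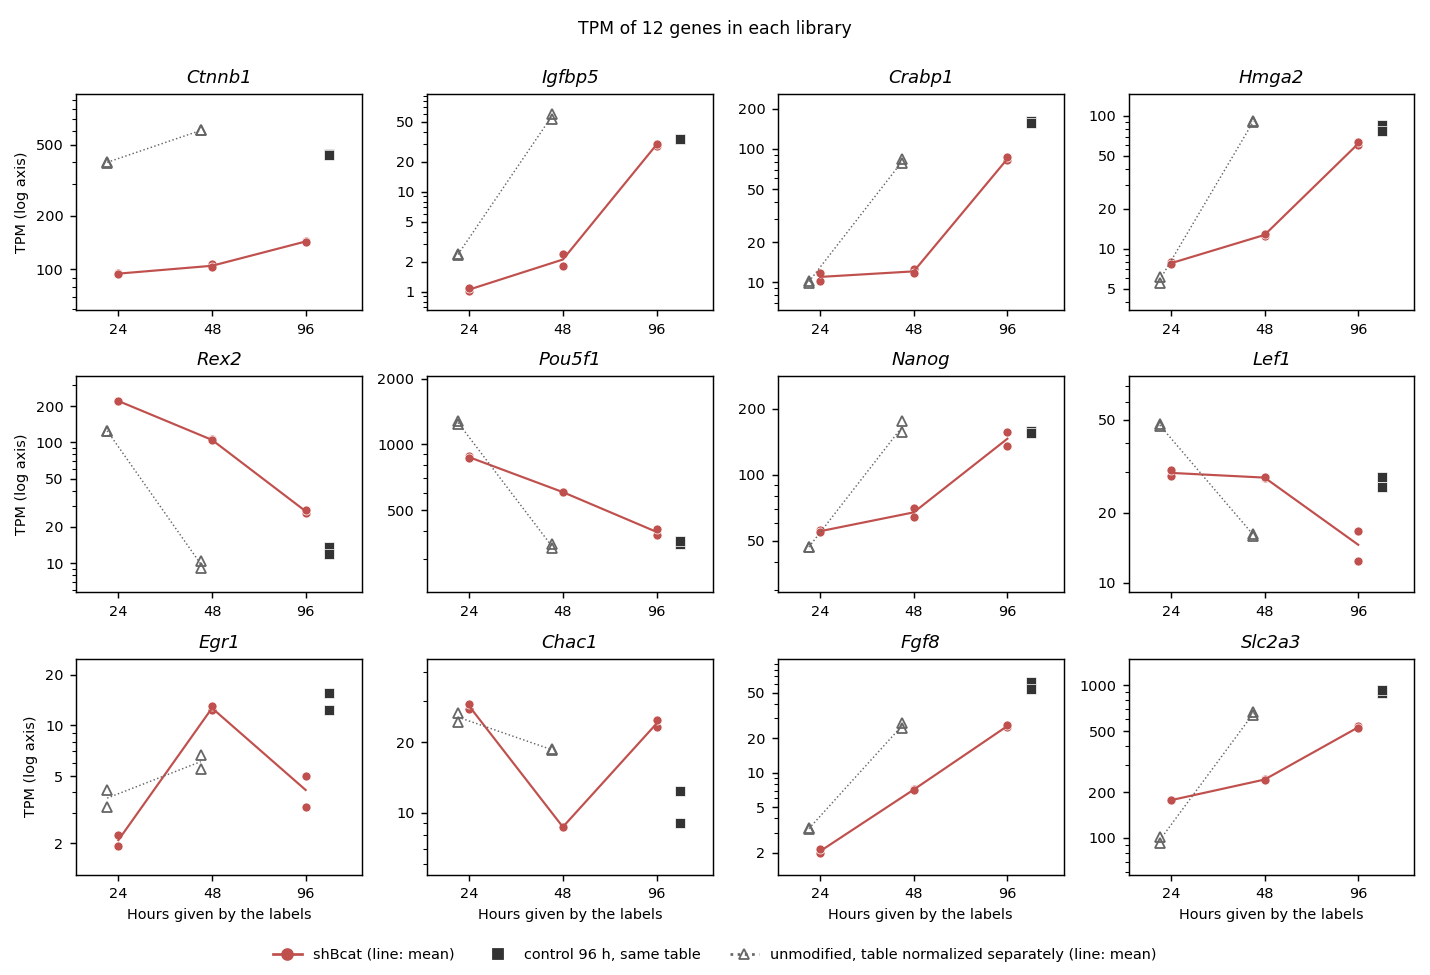
TPM of 12 genes in each library on log axes: red points are shBcat at 24, 48 and 96 h with a line through the means, black squares the control at 96 h, and open triangles unmodified epiLC at 24 and 48 h from the table normalized separately. The hours are equally spaced and not to scale. In Igfbp5, Crabp1, Hmga2 and Nanog the step from 48 to 96 h is larger than that from 24 to 48 h with shBcat (Igfbp5 3.31 against 0.59), and the unmodified libraries rise between 24 and 48 h.

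Genes of the formative and primed epiblast moved both ways, with 10 of 24 rising and 4 falling. Fgf5 rose from 19.9 and 19.1 to 29.5 and 31.8 TPM (0.62 (SE 0.07)). Otx2, a homeobox factor of the formative state, was at 17.6 and 17.6 TPM at 24 h, 6.22 and 6.11 TPM at 48 h and 8.36 and 9.25 TPM at 96 h; its later rise of 0.45 lost the call without the second library of 48 or of 96 h. Sox4 rose by 0.94 and Dusp6, a phosphatase induced by ERK signalling, by 0.79. Pou3f1 did not pass (-0.26, adjusted p = 0.082). The de novo DNA methyltransferases of this stage fell: Dnmt3a went from 171 and 168 to 87.9 and 98.2 TPM, Dnmt3l from 278 and 305 to 151 and 164 TPM and Dnmt3b from 121 and 117 to 93.6 and 101 TPM. Of 9 DNA methylation genes 5 fell and 1 rose, Tet3 (0.84), while Tet2, another of the Tet dioxygenases, went from 27.5 and 22.7 to 9.22 and 12.9 TPM. Jarid2, a Polycomb cofactor, fell from 127 and 126 to 75.4 and 81.9 TPM, in a Polycomb list of 20 with 3 rises and 4 falls (1 and 1 without the second 48 h library, 1 rise without the second 96 h library or under median-of-ratios scaling, 2 falls without the first 48 h library).

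Markers of early lineages rose at low levels. Of 17 anterior neural genes 13 rose and 1 fell, with a median of 0.50; 7 rose without the first 48 h library, 8 without the second and 7 without the second 96 h library. Sox1, the earliest neuroectoderm factor, rose from 19 and 18.2 to 35.6 and 34.7 TPM (0.88 ± 0.06 (SE), adjusted p = 9.93e-05) and was above the control, at 26.3 and 27.7 TPM, by 0.37 (SE 0.06). Ncam1, a neural adhesion molecule, rose from 5.20 and 4.82 to 11.2 and 12 TPM and was also above the control (8.14 and 7.91 TPM). Irx3 rose by 1.14 and Zfp521 by 1.34. Pax6 stood at 14.6 and 18.6 and 23.8 and 23.5 TPM; its rise of 0.50 lost the call without the first 48 h library or either 96 h library. Sox1, Pax6 and Six3 summed to 33.7 and 36.9 TPM at 48 h, 59.8 and 58.5 TPM at 96 h and 42.1 and 46.6 TPM in the control, with Six3 under 1 TPM. Hesx1 reached at most 0.99 TPM and was not tested.

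Mesoderm and endoderm genes also rose, and some stayed below the control. Of 16 primitive streak and mesoderm genes 8 rose and 1 fell (3 rose without the first 48 h library, 4 without the second, 4 without the second 96 h library). Fgf8, a ligand of the streak, went from 7.21 and 7.06 to 25 and 26.3 TPM (1.71 (SE 0.08)) and was at 62.3 and 54.3 TPM in the control, a difference from the control of -1.15 ± 0.08 (SE), adjusted p = 4.85e-04. Meox1 and Amot rose by 1.33 and 1.24. Nkx1-2, a homeobox gene of the caudal epiblast, went the other way, from 2.00 and 2.23 to 0.740 and 1.01 TPM with 2.23 and 2.28 TPM in the control. T, the streak factor Brachyury and a β-catenin target, was at 1.06 and 1.54 TPM at 48 h and 1.95 and 1.88 TPM at 96 h (0.35, adjusted p = 0.095). The control held 4.28 and 3.46 TPM, a difference of -0.74 ± 0.14 (SE), adjusted p = 0.029. Of 8 definitive endoderm genes 6 rose and 0 fell, among them Trh, at 171 and 181 and then 348 and 364 TPM (control 554 and 553 TPM), Prdm1 (1.26) and the tight junction gene Cldn6 (1.13). In each of these 2 lists 4 genes were lower than in the control at 96 h (2.54% of all genes tested were) and 0 were higher; without the second control library 1 streak gene and 3 endoderm genes were.

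Hox genes, which pattern the body axis, continued a rise that had begun before 48 h. Of 27 tested, 15 rose from 48 to 96 h and 1 fell, and from 24 to 48 h 17 rose and 1 fell, where 15.7% of all genes tested rose. The median change was 0.40 in the later interval and 0.98 in the earlier one, and 11 genes had a change more negative in the later than in the earlier interval, with 0 more positive, where 4.48% of all genes tested had a more negative change (3 and 4 members more negative without the first and the second 48 h library, 7 without either 24 h library). Hoxa9 stood at 3.14 and 2.21 TPM at 24 h, 13.1 and 11.4 TPM at 48 h and 37.8 and 37.5 TPM at 96 h. Hoxb2 stood at 5.20 and 5.24 TPM at 24 h, 25.6 and 23.7 TPM at 48 h and 37.1 and 37.1 TPM at 96 h. The control held 41.4 and 46.2 TPM of Hoxa9 and 41.2 and 42 TPM of Hoxb2, and neither difference from it passed. The Hox cofactor Meis1 rose by 1.42. Retinoic acid response genes, which include Meis1 and Crabp1, split into 6 rises and 4 falls of 15; Crabp2 was at 41.4 and 39, 29.9 and 30.9 and 58.8 and 52.2 TPM at the 3 times.

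Genes of the Wnt pathway are the ones nearest to the target. Of 23 catenin and destruction complex genes 13 rose and 0 fell, but 5 rose without the second 48 h library, 7 without the second 96 h library and 8 without the first 48 h library. Jup, plakoglobin, the close relative of β-catenin at junctions, went from 25.7 and 26.6 to 39.6 and 46.8 TPM (0.70 ± 0.10 (SE), adjusted p = 0.0017), beside 41.7 and 46.8 TPM in the control. Csnk1e, a casein kinase of the pathway, rose by 0.60, and Dvl2, a dishevelled protein, by 0.41. Of 21 Wnt ligands and modulators 11 rose and 0 fell (7 without the first 48 h library). The receptor Fzd2 rose from 10.7 and 10.4 to 23.4 and 29.8 TPM, Wls, which carries Wnt proteins to the surface, by 0.84 and the antagonist Sfrp1 by 0.66. Wnt8a, a ligand, rose from 38.2 and 34.6 to 49.8 and 53.6 TPM and was at 82.2 and 81.2 TPM in the control (-0.65 (SE 0.07) with shBcat).

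Of the 4 Tcf and Lef factors, Lef1 fell and the others moved little. Lef1 (chr3:131110297-131224357, GRCm38.p6), itself a Wnt target, was at 28.1 and 28.4 TPM at 48 h and at 12.4 and 16.6 TPM at 96 h (-0.93 ± 0.12 (SE), adjusted p = 0.0013), with the control at 25.6 and 28.5 TPM, a difference from the control of -0.86 ± 0.12 (SE), adjusted p = 0.0077. Both libraries at 96 h lay below both at 48 h and both controls. Tcf7 was at 27.4 and 27.1 and 23.4 and 25.1 TPM and did not pass (adjusted p = 0.062). Tcf7l1, a repressor of naive genes, rose by 0.41 and Tcf7l2 by 0.46, and both calls were lost without the second 48 h or the second 96 h library, that of Tcf7l2 also without the first 48 h library. Of 20 Wnt target genes 7 rose and 4 fell, a balance that turned to 4 rises and 6 falls under median-of-ratios scaling, and 1 rose without the first 48 h library, 0 without the second and 1 without the second 96 h library, while 2 fell without either 48 h library. Axin2, the target most used as a readout, was at 4.86 and 5.33 and 6.56 and 8.09 TPM with 8.39 and 8.78 TPM in the control; its rise of 0.44 lost the call without either 48 h library or the second 96 h library. Cdx2 rose by 0.49 to 2.14 and 2.47 TPM, below the control at 3.44 and 4.19 TPM, and lost that call without either 48 h library or the second 96 h library, and Cdx1 did not pass (-0.35). Sall1 changed by -0.42 and lost the call without either 48 h library. Sp5 reached at most 0.79 TPM and was not tested. At 96 h, 2.54% of all genes tested were lower and 2.29% higher with shBcat than in the control. Against the control, 4 of the 20 targets were lower with shBcat at 96 h and 0 were higher (2 lower without the first control library or the first 96 h shBcat library, 0 without the second control library).

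Among signalling lists, the ERK list held the gene whose course turned most sharply. Egr1, an immediate early transcription factor, was at 1.93 and 2.24 TPM at 24 h, 12.3 and 13 TPM at 48 h and 3.27 and 5.00 TPM at 96 h. Its change was -1.43 ± 0.17 (SE), adjusted p = 8.22e-04 from 48 to 96 h after a rise of 2.15 before, and the later change less the earlier was -3.58 (SE 0.29). The control at 96 h was at 12.4 and 15.5 TPM. The whole ERK list had 7 rises and 3 falls of 19, even at 6 and 6 under median-of-ratios scaling, and 4 rises without either 48 h library or the second 96 h library; Il17rd and Spry1, feedback inhibitors, rose by 1.11 and 0.58. BMP ligands and targets rose in 9 of 14 with 0 falls, and in 5 without either 48 h library or the second 96 h library or under median-of-ratios scaling: Id1, Id2 and Id3, inhibitors of bHLH factors, rose by 1.24, 1.07 and 0.62, and Bmp7 by 0.81. Notch genes rose in 6 of 15, with the targets Hes1 (0.81) and Nrarp (1.00), and the ligand Dll1 fell (-0.49). In the Nodal list, 5 of 19 rose and 2 fell (3 rose without the second 48 h or the second 96 h library), with Smad3 up by 0.81 and Lefty2, a Nodal antagonist, down from 99.5 and 96.2 to 75.5 and 83.1 TPM against 112 and 113 TPM in the control.

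Contractile genes were the list with the highest share of rises, 16 of 19 with 0 falls and a median of 0.73, and between 13 and 15 rose without any 1 of the 4 compared libraries. Tpm1, tropomyosin, rose from 222 and 233 to 607 and 549 TPM (1.34 ± 0.06 (SE), adjusted p = 1.31e-05), Vcl, vinculin, from 37.6 and 36.3 to 66.5 and 64.9 TPM and Thbs1, a matrix glycoprotein, from 4.21 and 4.51 to 18.5 and 16 TPM. Their differences from the control at 96 h, 0.02 for Tpm1, -0.18 for Vcl and 0.31 for Thbs1, did not pass. Over all genes tested, 2.54% were lower and 2.29% higher with shBcat than in the control at 96 h. Adhesion genes of epithelium and mesenchyme rose in 15 of 28 with 1 fall, and 11 of the 28 were lower than in the control at 96 h, with 3 higher (7 lower and 1 higher without either control library, 7 lower without the first 96 h shBcat library). Cldn7 and Cldn3, claudins of tight junctions, rose by 1.26 and 0.87 and stayed below the control, with differences of -0.79 and -0.57. Cdh2, N-cadherin, rose from 20.0 and 20.9 to 32.6 and 36.2 TPM and exceeded the control at 27.3 and 25.8 TPM. Cdh1, E-cadherin, the junctional partner of β-catenin, went from 200.4 and 199.9 TPM at 24 h to 142 and 139 TPM at 48 h and 117 and 125 TPM at 96 h, while the control held 168 and 174 TPM; the later change of -0.21 lost the call without either 48 h library, and the difference from the control was -0.50 ± 0.05 (SE), adjusted p = 0.0015.

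Markers of other cell types were read beside these groups. Primitive endoderm genes rose in 9 of 13, and the 5 defining markers summed to 9.0 and 8.98 TPM at 48 h, 14.3 and 15.8 TPM at 96 h and 15.1 and 14.3 TPM in the control. Most of that rise was Dab2, at 4.94 and 4.52 TPM at 48 h and 9.4 and 10.5 TPM at 96 h. Gata4 did not pass (limma, adjusted p = 0.090), and Gata6, Sox7 and Sox17 stayed under 1 TPM. Trophoblast and simple keratin genes rose in 12 of 18 (5 without the first 48 h library, 7 without the second and 7 without the second 96 h library), led by Krt18, at 19.7 and 20.7 and then 47.1 and 47.4 TPM, and Krt8 (0.96). Krt19 rose from 2.24 and 2.57 to 5.85 and 4.73 TPM and was at 13.4 and 16.7 TPM in the control. The 4 trophoblast markers summed to 6.32 and 7.20 TPM at 48 h and to 11.3 TPM in either library at 96 h, with Elf5 under 1 TPM. Fibroblast genes rose in 6 of 10 (2 without the second 48 h library); their 5 markers summed to 4.51 and 5.29 TPM and then to 7.20 and 7.18 TPM, and Col3a1 stayed under 1 TPM and Postn at or near 0. The 3 neuronal markers, mostly Stmn2, summed to 59.3 and 62.8 TPM at 48 h, 58.9 and 60.1 TPM at 96 h and 55.1 and 49.4 TPM in the control, and the 3 mesoderm markers to 1.98 and 2.50, 2.98 and 2.68 and 4.99 and 4.34 TPM in that order. The part of these markers in the rises was not tested.

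Germline genes fell and genes of the 2-cell stage rose a little. Over all genes tested, 15.7% rose from 24 to 48 h and 4.48% had a more negative change in the later interval. Of 31 germline and meiosis genes 18 fell and 5 rose (2 rose without the second 48 h library, 3 without the second 96 h library or under median-of-ratios scaling), with a median of -0.32. Stra8, which opens meiosis, went from 45.8 and 45.2 to 17.4 and 14.2 TPM (-1.48 ± 0.09 (SE), adjusted p = 6.06e-05), beside 14.4 and 14 TPM in the control. Hormad1, a protein of meiotic chromosome axes, changed by -1.29 and Rpl10l by -0.62. Of 20 genes of the 2-cell stage 10 rose and 0 fell (5 without either 48 h library or under median-of-ratios scaling and 6 without the second 96 h library), after 18 rises and 1 fall between 24 and 48 h; their median change was 0.25 in the later interval and 1.23 in the earlier, and 16 had a more negative change in the later interval (4 and 2 without the first and the second 48 h library). Zscan4e was at 33.2 and 32, 69.3 and 68.7 and 84.3 and 94.8 TPM at the 3 times and Usp17lb at 4.48 and 3.87, 16.8 and 16.4 and 24.2 and 25.7 TPM. Zscan4 and Usp17l genes are near-identical copies, so single members are uncertain. Imprinted genes, which are expressed from 1 parental allele, rose in 16 of 25 with 1 fall: Mest went from 243 and 238 to 665 and 749.7 TPM and H19 from 168 and 161 to 326 and 378 TPM, the latter above the control at 199 and 213 TPM. The Hmga, Lin28 and Igf2bp list, genes of the let-7 circuit, rose in 8 of 10 (5 without either 48 h library), with Igf2bp3 up by 0.62, Arid3a by 1.02 and Lin28a by 0.32.

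Metabolic lists held more genes below the control at 96 h than genes that rose. Of all genes tested, 2.54% were lower with shBcat than in the control at 96 h. The glycolysis list of 22 symbols matched 23 entries. Hypoxia targets rose in 9 of 26 and fell in 2 (5 rises without the second 48 h library, 5 falls under median-of-ratios scaling), while 17 of the 26 were lower with shBcat than in the control at 96 h and 0 were higher, with a median difference of -0.65. Slc2a3, a glucose transporter, shows both: it rose from 243 and 240.2 to 539 and 523 TPM (1.13 (SE 0.04)) and was at 890.3 and 936 TPM in the control (-0.78 ± 0.04 (SE), adjusted p = 1.55e-04). Vegfa, the angiogenic factor, was at 32.8 and 33, 19.2 and 20.7 and 48.4 and 45.8 TPM at the 3 times. Glycolysis genes had 7 rises and 2 falls of 23, turning to 3 and 6 under median-of-ratios scaling, and 3 rises without either 48 h library; 16 of 23 were lower than in the control, with a median of -0.49. Slc2a1 went from 243 and 250.4 to 315 and 354 TPM with 531 and 622 TPM in the control. Cholesterol and fatty acid genes had 10 rises and 2 falls of 30, even at 4 and 4 under that scaling, with 2 rises without the second 48 h library and 5 without the second 96 h library, and 16 of 30 were lower than in the control (8 and 5 without the first and the second control library, 9 without the first 96 h shBcat library); Mvd stood at 60.1 and 53.2 and 76.5 and 78.7 TPM (control 103 and 115 TPM). Interferon response genes rose in 10 of 19 (6 without the second 48 h library) and 9 were below the control (3 without the second control library): Psmb8, an immunoproteasome subunit, went from 5.41 and 5.45 to 14.1 and 12.8 TPM with 28 and 28 TPM in the control, and Isg15 from 1.88 and 1.78 to 3.66 and 4.56 TPM with 10.7 and 10.7 TPM.

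Genes of the ATF4 stress response went down and then up. ATF4 is the transcription factor that raises amino acid supply genes when translation is restrained. From 24 to 48 h 19 of 26 members fell and 1 rose, from 48 to 96 h 13 rose and 1 fell, and in 19 members the later change was more positive than the earlier, with 0 more negative. Of all genes tested, 17.8% fell from 24 to 48 h and 10.3% had a more positive later change. The list of 25 symbols matched 26 entries. Without the first and the second 48 h library that number was 6 and 5, and the early falls were 14 and 12, the latter also without the second 24 h library. Chac1, a glutathione-degrading enzyme, was at 27.9 and 29.3 TPM at 24 h, 8.70 and 8.66 TPM at 48 h and 23.3 and 24.9 TPM at 96 h. Ddit3, the factor CHOP, was at 18.9 and 21.3, 7.82 and 9.20 and 16.9 and 15.6 TPM. Both were above the control at 96 h, which held 9.04 and 12.4 TPM of Chac1 and 7.51 and 7.22 TPM of Ddit3, and 16 of the 26 members were higher than in the control with 0 lower, where 2.29% of all genes tested were higher (9 without the first control library, 10 without the second 96 h shBcat library). Ddit4 and Vldlr rose by 1.07 and 0.92. Of 15 unfolded protein response genes 6 rose and 1 fell (3 rose without the second 48 h library), with Herpud1 at 60.9 and 57 TPM at 24 h, 25.6 and 25.6 TPM at 48 h and 39 and 44.1 TPM at 96 h. Of 21 p53 targets and apoptosis genes 11 rose and 2 fell (5 rose without the first 48 h library, 3 without the second, 5 without the second 96 h library and 6 under median-of-ratios scaling), and 8 were higher than in the control (2 without the second 96 h shBcat library, 3 without either control library). Btg2, an antiproliferative gene, rose by 0.89 and Plk2 fell from 37.4 and 37.8 to 23.8 and 25.1 TPM.

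Proliferation and housekeeping lists changed by small amounts. Counts above the control at 96 h are to be read against 2.29% of all genes tested. DNA replication genes fell in 13 of 34 with 1 rise, a median of -0.15, in 7 without either 48 h library and in 22, with 0 rises, under median-of-ratios scaling; Mcm10 went from 83.1 and 86.1 to 67.3 and 68.5 TPM and Slbp, the histone mRNA binding protein, from 187 and 186 to 149.6 and 155 TPM. Mitosis genes had 6 rises and 0 falls of 24, turning to 2 and 3 under median-of-ratios scaling, with between 1 and 4 rises without any 1 of the compared libraries. Ribosomal protein genes had 6 rises and 1 fall of 64, turning to 0 and 5, with 1 and 0 rises without the first and the second 48 h library and 4 falls without the first 96 h library. Nuclear oxidative phosphorylation genes had 4 falls of 38, with 13 under median-of-ratios scaling, 0 without either 48 h library and 2 and 1 without the first and the second 96 h library. Of 13 mitochondrial transcripts 4 fell (2 and 1 without the first and the second 48 h library), and 6 were higher than in the control, mt-Nd1 among them by 0.36. Lysosomal and autophagy genes rose in 8 of 22 with 1 fall (4 rises without the first 48 h library, 5 without the second or under median-of-ratios scaling), led by Lamp2 (0.65) and Wipi1 (0.53). Cell surface guidance genes rose in 10 of 23 with 1 fall, led by Efnb1, an ephrin, from 15.2 and 14.3 to 30.7 and 33.8 TPM. Neuronal genes rose in 6 of 15 and fell in 2 (3 rises without the second 96 h library), and neural crest genes rose in 4 of 8 with 1 fall, Foxd3, from 4.27 and 4.52 to 1.28 and 1.77 TPM. Of 14 reference genes 2 rose and 3 fell (1 fell without the first 48 h library, 1 rose without the second 48 h or the second 96 h library, 1 rose and 6 fell under median-of-ratios scaling), with changes of 0.43 for Actb and -0.21 for Gapdh.

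The second table allowed the same genes to be read in unmodified epiLC, in libraries that share none with the knockdown. There, from 24 to 48 h, 7490 of 16559 genes tested rose (45.2%) and 4789 fell (28.9%) in a fit of that table alone. Of the 3819 genes that rose from 48 to 96 h with shBcat and were tested in both tables, 3275 rose in unmodified cells from 24 to 48 h (85.8%) and 169 fell, and of the 1455 that fell 1259 fell there (86.5%) and 55 rose. Over all 14832 genes tested in both, 46.8% rose and 30.3% fell in unmodified cells. The shared genes were 47.1% of the rises and 28.0% of the falls of unmodified cells. The 2 intervals differ in start and length. Over all genes, the change from 24 to 48 h with shBcat was not counted against that of unmodified cells, and a delay was not tested. Across those 14832 genes the 2 changes had a Pearson correlation of 0.71 and a Spearman correlation of 0.69; genes are not independent replicates, and both sets share the cell line, the medium and the gene models.

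**Figure D5:**
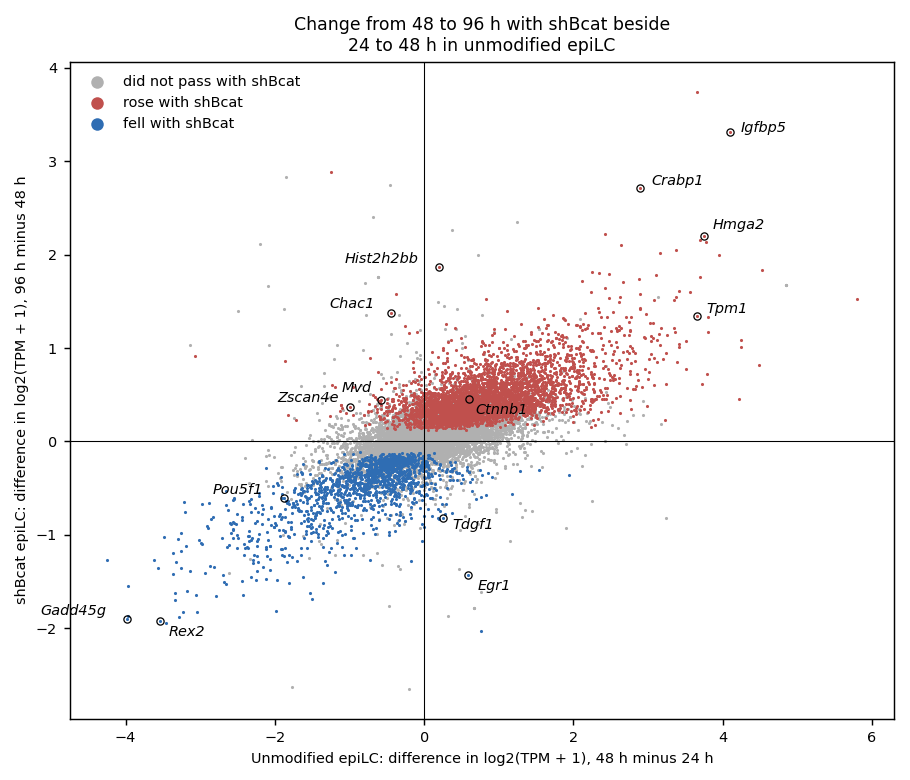
Each point is 1 of the 14832 genes tested in both tables, with its difference in log2(TPM + 1) from 24 to 48 h in unmodified epiLC on the horizontal axis and from 48 to 96 h with shBcat on the vertical axis. Red genes rose and blue genes fell with shBcat at an adjusted p under 0.05, grey genes did not pass; most coloured points lie where both changes have 1 sign, and Chac1, Egr1, Tdgf1, Mvd and Zscan4e lie where they do not.

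The genes with the largest changes were among those shared. Of the 15 largest rises with shBcat 14 rose in unmodified cells from 24 to 48 h, and the other, Hist2h2bb, did not pass there (1.19 and 0.640, then 1.30 and 1.04 TPM). Of the 15 largest falls 15 fell there, and so did 17 of 17 genes of the chromosome 4 cluster. Over all genes tested in both, 46.8% rose and 30.3% fell there. Igfbp5 was at 2.35 and 2.38 TPM in unmodified epiLC at 24 h and at 59.3 and 54 TPM at 48 h. Hmga2 went from 6.12 and 5.55 to 91.3 and 90.3 TPM, Crabp1 from 9.88 and 10.2 to 84.6 and 77.8 TPM and Mir100hg from 0.220 and 0.140 to 14.5 and 13.9 TPM. Rex2 went from 125 and 124 to 10.5 and 9.22 TPM and Pou5f1 from 1234 and 1279.9 to 349 and 336 TPM. Set beside these, the shBcat libraries at 48 h held 1.81 and 2.40 TPM of Igfbp5, 12.5 and 12.9 TPM of Hmga2 and 106 and 104 TPM of Rex2. The unmodified libraries held 398 and 401 TPM of Ctnnb1 at 24 h and 604 and 604 TPM at 48 h. The 2 tables were normalized separately, so their levels were not tested against each other.

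The lists were counted in unmodified cells too and are given beside the counts with shBcat, with no test between them. Their counts are to be read against 46.8% rising and 30.3% falling over all genes tested in both. In unmodified cells from 24 to 48 h 19 of 19 contractile genes rose, 21 of 23 Hox genes, 25 of 28 adhesion genes and 13 of 14 anterior neural genes, and 15 of 18 core pluripotency, 31 of 34 DNA replication and 8 of 9 DNA methylation genes fell. Genes of the 2-cell stage had 0 rises and 15 falls of 20 there, against 10 rises and 0 falls with shBcat from 48 to 96 h. Cholesterol and fatty acid genes had 2 rises and 25 falls of 30, against 10 and 2, and ATF4 genes 7 rises and 16 falls of 25, against 13 and 1. Ribosomal protein genes had 44 rises and 6 falls of 64, against 6 and 1, and the Tcf and Lef factors 1 rise and 2 falls of 4, against 2 and 1. These counts set unlike intervals side by side. With shBcat from 24 to 48 h, rises and falls were 18 and 1 of 20 for 2-cell genes and 17 and 1 of 30 for cholesterol genes. In that interval they were 1 and 19 of 26 for ATF4 genes, 8 and 0 of 64 for ribosomal protein genes and 0 and 1 of 4 for Tcf and Lef factors. Of 194 named genes that were called with shBcat and tested in both tables, 167 were called in the same direction, 15 were not called in unmodified cells and 12 were called in the opposite direction. Chac1, Herpud1, Otx2, Tcf7l1, Mvd, Stard4, Tubb3, Zscan4b and Zscan4e rose with shBcat and fell in unmodified cells, and Egr1, Tdgf1 and Lefty2 fell with shBcat and rose there. The calls of Zscan4e and Stard4 with shBcat were lost without the second 48 h library. Egr1 was at 4.12 and 3.28 and then 5.51 and 6.67 TPM in unmodified cells and Chac1 at 26.9 and 24.5 and then 18.5 and 18.8 TPM. With shBcat from 24 to 48 h Chac1, Herpud1 and Otx2 fell and Egr1 and Tdgf1 rose, as in unmodified cells, while Zscan4e rose. The rest of the 12 are not given for that interval. The difference between the changes with shBcat and in unmodified cells was not tested, since the tables were normalized separately and each was tested alone.

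Within the knockdown itself, the later interval was tested against the earlier one. From 24 to 48 h 2397 genes rose (15.7%) and 2718 fell (17.8%), and 2256 genes (14.7%) changed differently in the 2 intervals, 1570 (10.3%) with a more positive and 686 (4.48%) with a more negative change from 48 to 96 h. These counts were 295 and 218 without the first and the second 48 h library and 1044 and 1053 without the first and the second 24 h library. The intervals share the 48 h libraries and differ in length. At 96 h, 350 genes (2.29%) were higher and 388 (2.54%) lower with shBcat than in the control, 738 in all, with 368 and 279 without the first and the second control library.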

How the data were processed

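RNA was extracted with TRIzol, treated with DNase and made into libraries with a TruSeq RNA kit, per the labels. The deposited TPM values per gene were made by the authors. Per the submitters' processing notes the tools used were bcl2fastq 2.18, STAR, RSEM and Bowtie2 with the mm10 build, and their parameters and the other versions are not given in the sources used here. Whether reads were counted by strand is also not given. TPM sum to a fixed total, so a gene's value depends on all others, and depth is unknown.

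The expression table holds 55421 genes and 8 libraries, 2 per group (shBcat at 24, 48 and 96 h, control at 96 h), and 15304 genes at 1 TPM or more in 2 or more libraries were tested. limma 3.58.1 (R 4.3.3, statmod 1.5.0) was fitted to log2(TPM + 1) of all 8 libraries with a term per group, variance trend and robust moderation, two-sided, with 4 residual degrees of freedom, and p-values were adjusted over all genes tested by the method of Benjamini and Hochberg at 0.05. A fold change on this scale understates the change of low genes. The script was tested on simulated data. Values are given per library, since n = 2 per group.

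Ctnnb1 was named first, then the 15 largest rises and the 15 largest falls among genes past the threshold, with libraries that did not overlap and at least 5 TPM in the higher group, leaving out predicted genes, pseudogenes, ribosomal protein and small RNA genes, then up to 4 members of each of 44 lists by smallest p, and a set of fixed names. Other list members and cluster genes were named after their values were seen. The members, lists and named genes were chosen with earlier results of these data known. The fit of unmodified epiLC (a table normalized separately), the chromosome 4 cluster and its promoter stretches were added after seeing the data. Of 959 list symbols 955 were in the table. RefSeq positions and sequences (GRCm38.p6) were matched by symbol, 93.2% of the genes tested. Alternatives were other pseudocounts, filters, moderation, scaling, sample sets, a replicate block and leaving out each library. Files of other cell lines and conditions were not used here.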

Additional observations from a re-analysis of the deposited data

Results flagged for a closer look

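A change in the later interval that differed from that in the earlier one by the test of the difference itself (limma, adjusted p under 0.05) was found in 2256 genes. Among the named genes of this kind, 16 also passed in both intervals with opposite directions. The values that follow are the change from 48 to 96 h less the change from 24 to 48 h, in log2(TPM + 1). Both contrasts use the 48 h libraries, which enter them with opposite signs.

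Genes that fell first and rose later included members of the ATF4 and unfolded protein lists, with a difference of 2.99 for Chac1, 2.01 for Ddit3, 1.84 for Herpud1 and 1.38 for Vldlr. The developmental factors Plagl1, Esrrb and Otx2 had differences of 2.35, 2.00 and 1.83. Vegfa, an angiogenic factor, had 1.89, the glycolytic enzyme gene Eno2 1.10 and the interferon response factor gene Irf1 1.05. Crabp2, which binds retinoic acid, had 1.24 and the endocytic receptor gene Lrp2 1.16.

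Among the genes past that 2-fold minimum, those that rose first and fell later were Egr1, with a difference of -3.58, and the caudal homeobox gene Nkx1-2 with -1.69. The others were the kinase gene Plk2 with -1.41 and the Nodal co-receptor gene Tdgf1 with -1.13.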

How the results depend on the processing

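With a 2-fold minimum added, the 96 h against 48 h comparison had 324 genes (197 rises, 127 falls), the difference between intervals 483 (281 and 202) and the comparison with the control 44 (16 higher, 28 lower). With no filter on low values the latter 2 had 914 (564 and 350) and 341 (169 and 172). Median-of-ratios scaling gave 2543 rises, 2396 falls and 1088 genes more negative later.

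Leaving out 1 library at a time gave 2611 to 5295 genes from 48 to 96 h (1868 to 3774 rises, 743 to 1521 falls), 218 to 2450 for the difference between intervals (133 to 1835 more positive, 85 to 651 more negative) and 279 to 500 against the control (155 to 227 higher, 124 to 274 lower). Lists with more rises than falls numbered 31 to 35 of 44. A group left with 1 library was assumed to vary like the others. In unmodified epiLC the counts were 6339 to 7430 rises and 4084 to 4750 falls. The cause of these changes was not tested.

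The replicate numbers share only a number: deviations of same-numbered libraries correlated at -0.096 to 0.28 across pairs of groups. The fit with a replicate block gave 3972 rises and 1531 falls.

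Over the single genes named, 212 in number, 3584 values under the alternatives held 3447 with the same direction and side of the threshold, 125 that lost it, 12 that gained it and 0 reversed, and 171 of 206 called genes passed in every alternative. The mitochondrial list gives no value without its own transcripts. TPM carry no depth, so no counting error can be given.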

Other observations

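Histone genes of the replication-dependent clusters and their relatives (symbols starting with Hist) rose from 48 to 96 h: of 42 tested, 18 rose and 0 fell, with a median of 0.73, where 25.2% of all genes tested rose. Most of them are near the floor. With a filter of at least 5 TPM in 2 libraries, 5 were tested, of which 2 rose and 0 fell. Between 10 and 11 rose without any 1 of the 4 compared libraries. Summed, they held 60.5 and 59.0 TPM at 48 h, 124.1 and 116 TPM at 96 h and 92.4 and 114 TPM in the control. The family was picked after its values were seen.

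Rab GTPases, which direct vesicle traffic, had 26 rises and 0 falls of 63 tested with a median of 0.19. Under median-of-ratios scaling 13 rose and 5 fell, and without the first and the second 48 h library 11 and 10 rose.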
